A study of Rattus norvegicus with 3 samples.

Results

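Dor peaks 500 bases or wider that were called in immature oligodendrocytes (iOL) and had no peak of the other stages at or near them are described here. A peak was taken from the iOL list on chromosomes 1 to 20 if no peak of oligodendrocyte precursor cells (OPC) or mature oligodendrocytes (mOL) overlapped it or lay within 1000 bases of either border. This left 1891 of the 59681 iOL peaks, or 37.2% of the 5087 iOL peaks of that width on these chromosomes, where 63.9% of all iOL peaks were alone by the same distance. Peaks that met the rule are called wide iOL-alone peaks below. They were chosen by measured width and by the measured distance to other peaks, so neither is a finding, and no test was made of them.

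The cells were primary rat precursors shaken off mixed glial cultures. The OPC library came from precursors, which the labels' protocols grow in Sato medium with bFGF at 20 ng/ml and the mitogen PDGF-AA at 10 ng/ml. The iOL and mOL libraries came from cells labelled as treated with the thyroid hormone T3, which the protocols give at 15 nM with CNTF at 10 ng/ml. All 3 libraries were made by CUT&Tag with a rabbit antibody to Dor, and each stage had 1 library, so no difference below is shown to be one between stages. No genotype, strain or age is given in the labels, and no control library was analysed here. The stage of the cells was not checked against marker genes, since the deposited lists hold positions on the rat build rn5 and no genome or annotation of that build was used here. For the same reason the peaks are given by position, without genes, features or sequences.

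Dor, also called Tp53inp2, is a small protein that shuttles between nucleus and cytoplasm. It binds proteins of the autophagosome and acts as a coactivator of nuclear receptors, the thyroid hormone receptor among them, rather than as a DNA-binding factor of its own. In CUT&Tag a transposase tethered to the antibody cuts nearby DNA, so a peak marks chromatin near the bound antibody. The immature stage follows exit from the cell cycle and precedes the wrapping of axons, and T3 is a classical signal for this transition.

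The genome background, meaning the lowest background used in a library, was 0.540 fragments per base in iOL, 1.47 in OPC and 1.83 in mOL. The iOL library had the lowest background, and its weakest peaks had 6 fragments at the summit, 11.1 times the background. The fragments stacked at a summit, the pileup, were worked out from the authors' fold and p-value, and the strength of a peak is its pileup over the genome background. Intervals in brackets are 95% and cover counting error only. They treat the peaks of a list as independent draws. The Poisson limits of pileups used below likewise treat fragments as independent, although fragments without molecular identifiers are not independent molecules.

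By median pileup, wide iOL-alone peaks lay below the wide iOL peaks that overlapped another list and above the narrow iOL-alone ones. The width of the wide iOL-alone peaks ran from 500 to 1371 bases with a median of 660 (650 to 669), and 67 of them reached 1000 bases. The pileup ran from 6 to 38 fragments with a median of 11 (11 to 12), which is 20.4 times the background. Over the local background, the median fold was 7.14 (6.98 to 7.31). The 2625 wide iOL peaks that overlapped an OPC or mOL peak were similar in width, with a median of 673 bases, and higher, with a median pileup of 17 and a fold of 8.23. Another 571 wide iOL peaks had an OPC or mOL peak within 1000 bases but overlapped none. These were as low as the wide iOL-alone peaks, with a median pileup of 11, a fold of 6.73 and a width of 663 bases. The 34723 iOL-alone peaks under 500 bases had a median pileup of 8 and a fold of 5.19. Only 2 wide iOL-alone peaks (0.106%) stood at 50 times the background or more, against 422 of the overlapping wide peaks (16.1%). Of the 571 that were near but not overlapping, 2 did (0.350%). With 1 library these are descriptions of 1 list.

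Pileups of the wide iOL-alone peaks did not fall off as steeply as those of narrow ones. The most frequent pileup was 8 fragments, with 217 peaks. The number was 119 at 11 fragments (exact Poisson interval 98.6 to 142), 148 at 15 (125 to 174) and 41 at 18. The intervals at 11 and 15 fragments overlap, so counting error does not separate these counts, and no test of separate ranges was made. Narrow iOL-alone peaks fell at every step from 8928 at 6 fragments to 454 at 15, and wide overlapping peaks rose at every step from 37 at 6 fragments to 158 at 14. The bands of 6 to 9 and of 13 or more fragments used below are cuts along this range, set after it was seen, so their contrast in pileup is not a result.

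**Figure D1:**
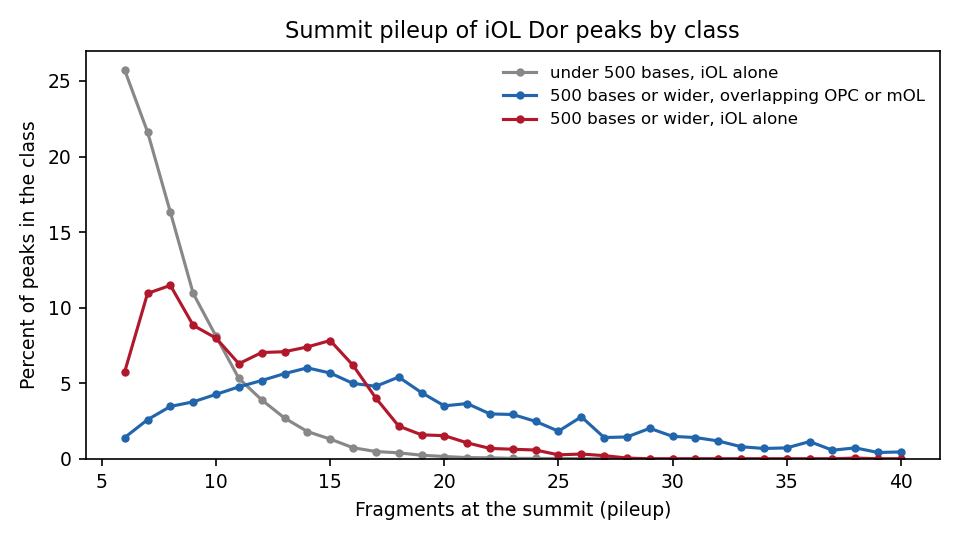
Fragments at the summit (x axis) against the percent of peaks in each class (y axis), for 3 classes of iOL peaks on chromosomes 1 to 20; 79 overlapping wide peaks above 40 fragments lie beyond the axis. The wide iOL-alone peaks have their highest count at 8 fragments and stay between 119 and 151 peaks from 10 to 15 fragments.

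Shape went with pileup among the wide iOL-alone peaks, which were chosen by width. Among the 700 wide iOL-alone peaks of 6 to 9 fragments, the summit lay more than 20% of the width away from the middle in 575 (82.1%), and the median width was 707 bases. Among the 788 of 13 or more fragments it lay that far off in 24.7%, and the median width was 612.5 bases. Of the 700 weak peaks, 366 had the summit in the first 30% of the width, counted along the chromosome, and 209 in the last 30%. The overlapping wide peaks changed less with pileup: at 6 to 9 fragments 83.1% had the summit that far off the middle, at 13 to 15 fragments 53.2% and at 16 to 18 fragments 45.4%, against 82.1%, 29.4% and 19.7% of the iOL-alone peaks. Narrow iOL-alone peaks went the other way, with 13.9% that far off at 6 to 9 fragments, 42.8% at 13 to 15 and 39.6% at 16 to 18. The link of shape and pileup is thus described for wide peaks only, and how far the width limit makes it was not tested. The median pileup was lower in wider peaks: the 643 wide iOL-alone peaks under 600 bases had a median pileup of 13, and the 190 of 900 bases or more a median of 9.

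**Figure D2:**
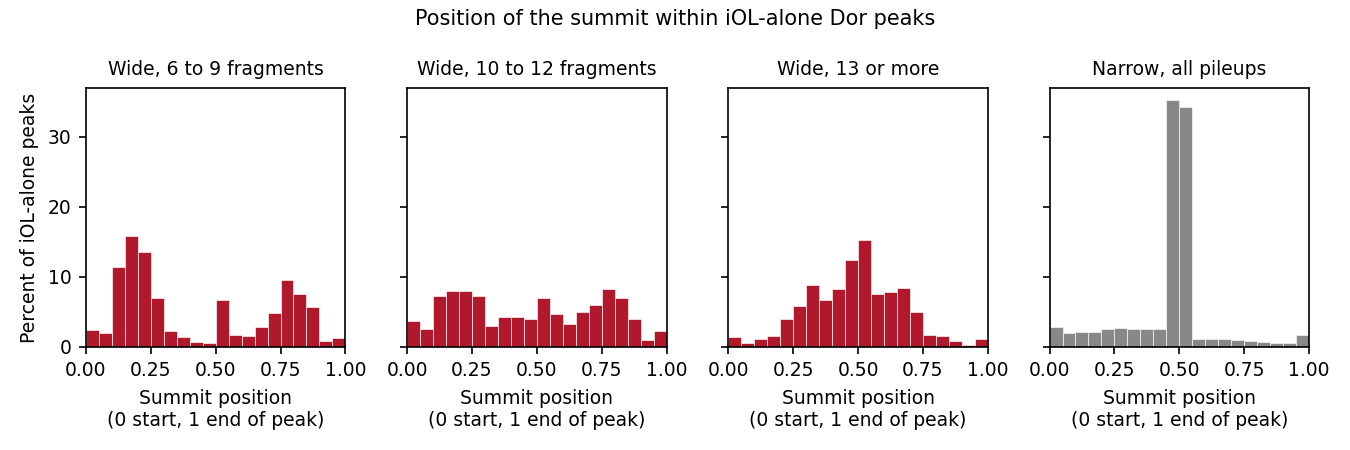
Position of the summit along the peak (x axis, 0 for the start and 1 for the end) against the percent of peaks (y axis), for wide iOL-alone peaks by pileup and for narrow iOL-alone peaks. Weak wide peaks have their summits toward either end, strong wide peaks near the middle, and 65.8% of narrow peaks within 1 base of the middle.

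The width limit fell on a step in the lists. The iOL list held 134 peaks of 499 bases, 126 of 500 and 21 of 501. The OPC list held 104, 105 and 36 peaks of these widths, and the mOL list 361, 370 and 87. Among iOL peaks of 500 bases, 67 had the summit within 1 base of the middle and at 501 bases there were 0. The wide iOL-alone peaks include 72 of exactly 500 bases, of which 37 had the summit at the middle, against 10 of the 1819 wider ones (0.550%). Of the narrow iOL-alone peaks, 65.8% had it there. Without the 72 peaks the median pileup stayed at 11 and the median width was 667 bases. Just inside the limit, iOL-alone peaks of 500 bases had pileups of 6 to 20 and a median of 8. Just outside it, the 79 of 499 bases had the same range and median.

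Many of the stronger wide iOL-alone peaks stood in sparsely covered surroundings. Backgrounds above the genome floor moved in equal steps. With a window of 10000 bases assumed, the fragment length was fitted so that 1 step is 1 fragment end. The match alone is therefore no separate check of the window. On this reading the backgrounds give the number of fragments in a 10 kb window around the summit. At the floor that number is at most 18, and the percent of these fragments stacked at the summit is then a lower bound. Of the 1891 wide iOL-alone peaks, 935 (49.4%, 47.2 to 51.7%) held at least 50% of the 10 kb fragments at the summit, against 953 of the 2625 overlapping wide peaks (36.3%, 34.5 to 38.2%). Of the 571 wide peaks near but not overlapping another list, 229 did (40.1%, 36.1 to 44.3%). At least 80% were held by 171 (9.04%) of the wide iOL-alone peaks and by 92 of the overlapping wide peaks. The median percent at the summit was 48.4% over all wide iOL-alone peaks and 43.9% over all overlapping wide peaks. The medians lay further apart at 13 to 15 fragments, at 68.2% and 46.7%, and at 16 to 18, at 72.7% and 45.0%. At 6 to 9 fragments the medians were 38.1% and 36.0%. Only 363 of the 700 iOL-alone and 187 of the 295 overlapping peaks of this band were above the floor. The rest have a percent set by the bound of 18, so these medians cannot show whether the classes were alike. Narrow iOL-alone peaks had medians of 65.0% and 66.7% at 13 to 15 and 16 to 18 fragments. This measure, too, was chosen after the data were seen.

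**Figure D3:**
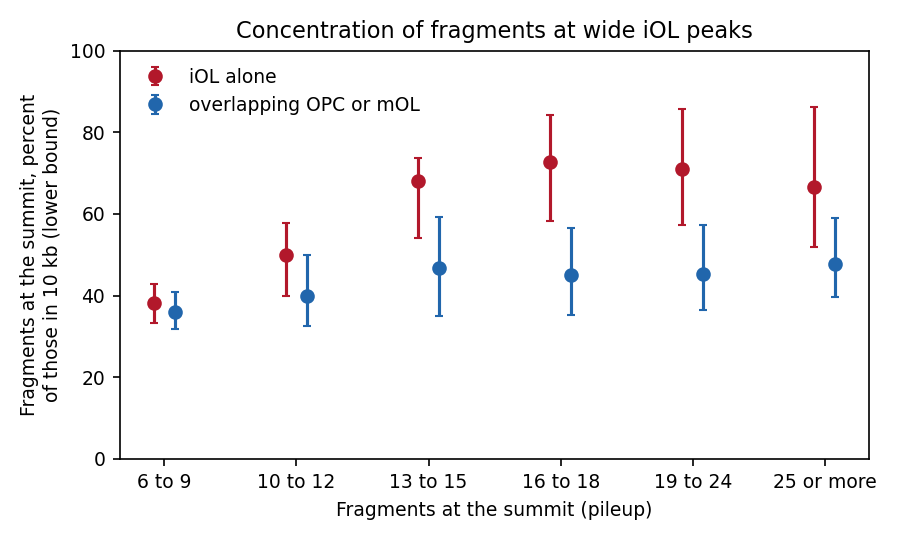
Fragments at the summit as a percent of those in the 10 kb window around it (y axis, a lower bound where the background is at its floor) by pileup (x axis), for wide iOL peaks; points are medians and bars are quartiles over peaks. From 13 to 24 fragments the median of iOL-alone peaks is 68.2 to 72.7%, and that of overlapping peaks 45.0 to 46.7%.

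The strongest wide iOL-alone peak, chr18:65241503-65242217, had a fold of 17.98. It had 38 of the 39 fragments of its 10 kb window at its summit, 70.3 times the background. The nearest mOL peak lay 4794 bases away and the nearest OPC peak 81336 bases. A peak of 565 bases at chr1:137018537-137019101 followed with 28 of 42 fragments and a fold of 12.8. These are the 2 that passed 50 times the background. At chr17:80995361-80996009, 27 of 30 fragments stood at the summit, and the nearest iOL peak on the left and mOL peak on the right each lay 11571 bases away. At chr9:108420733-108421531, all 26 fragments of the 10 kb window stood at the summit, with a fold of 15.2 over a width of 799 bases. The peak chr5:67259474-67260060 had 26 of 29 fragments at its summit and a fold of 14.4.

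The other strong peaks had 36 to 85.5 fragments in their windows. At chr1:82629545-82630229, 27 of 72 fragments stood at the summit, with a fold of 8.87, an mOL peak 2254 bases away and an OPC peak 2594 bases away. The peak chr14:33826521-33827047 had 27 of 56 fragments, and chr14:83715475-83716208 had 27 of 36 with an mOL peak 1364 bases away. At chr8:62525445-62526063 the count was 26 of 44, and at chr5:90473213-90473883 it was 26 of 50, with the summit 77.9% of the way along the peak. In all, 6 peaks stood at 26 fragments, and 2 of them fell outside the 10. Ties were ordered by p, which left out the 2 with the most fragments in their windows: chr3:160309272-160309829 had 26 of 79 fragments and a fold of 8.02, and chr5:168633508-168634138 had 26 of 85.5 and a fold of 7.58, where a fragment with 1 end in the window counts as 0.5. The 4 peaks of 27 fragments had folds from 8.87 to 14.7, since the fold depends on the surroundings. Among the 5 highest folds there was 1 peak outside those named for their pileup, at chr7:36165631-36166150, where all 24 fragments of the window stood at the summit, for a fold of 14.5.

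The widest peaks were among the weakest. The widest, of 1371 bases at chr8:115873596-115874966, had 7 fragments at its summit and a fold of 4.50. The next, at chr18:74307379-74308602 and at chr7:64480093-64481314, had 8 fragments each. Those at chr2:257677714-257678894 and at chr15:85124044-85125217 had 7 fragments each. All 5 had folds of 4.50 to 5.52, below the median of the wide iOL-alone peaks, and in all but the chromosome 7 peak the summit lay within 20% of the width from an end.

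Whether a wide iOL peak was alone went with its pileup. The rule held for 37.2% of the wide iOL peaks and for 66.5% of those under 500 bases. Among wide peaks it held for 57.5% at 6 to 9 fragments (54.6 to 60.3%), 42.2% at 13 to 15 (39.1 to 45.3%), 17.0% at 19 to 24 (14.2 to 20.0%) and 2.82% at 25 or more (1.65 to 4.48%). At the same pileups narrow peaks were alone in 70.3%, 58.8%, 25.4% and 4.33% of cases. These values use the distance and width of the rule and are given as a description, with no test. By the same rule, 2980 of the 11579 wide OPC peaks (25.7%) and 19758 of the 32811 wide mOL peaks (60.2%) were alone, in libraries of other depths. The shares over all OPC and all mOL peaks are not given here. These values therefore cannot show whether wide peaks differed from the rest of their lists.

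**Figure D4:**
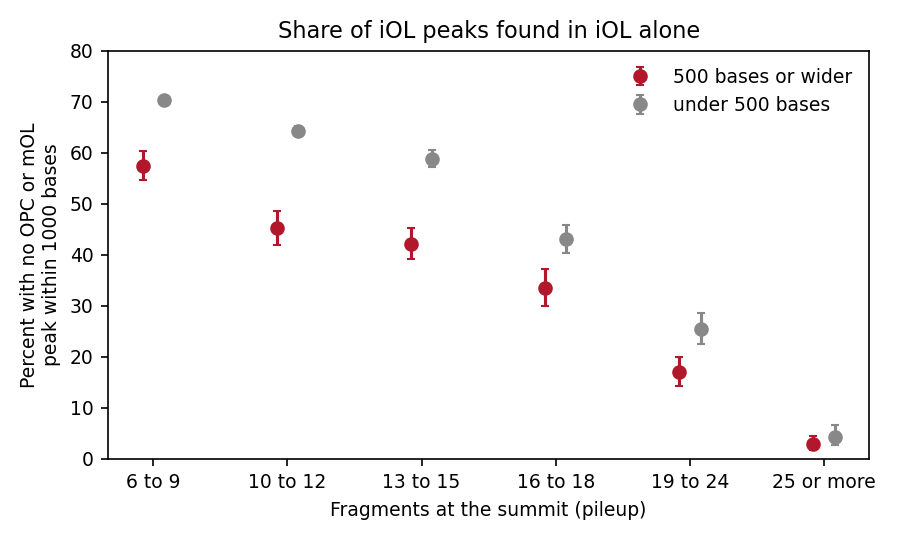
Percent of iOL peaks with no OPC or mOL peak within 1000 bases (y axis) by pileup (x axis), for peaks of 500 bases or wider and narrower ones; bars are exact 95% binomial intervals. The percent falls from 57.5 to 2.82 in wide peaks and from 70.3 to 4.33 in narrow ones.

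Depth set what the absence of OPC and mOL peaks can show. With the lower 95% Poisson limit of each pileup and equal signal over background, a peak in the OPC library would have been called at 788 of the wide iOL-alone positions (41.7%, 39.4 to 43.9%), those of 13 or more fragments, and a peak in the mOL library at 921 (48.7%, 46.4 to 51.0%), those of 12 or more. Among all iOL peaks of chromosomes 1 to 20 these shares were 15.6% and 20%. Among all 5087 wide iOL peaks they were 58.5% and 64.8%, above those of the wide iOL-alone peaks. By this lower limit neither library had the coverage at 970 wide iOL-alone peaks (51.3%). With the pileup itself in its place, 1782 (94.2%) were within reach of the OPC library and 1891 (100%) within reach of the mOL library, so the share for which a difference was detectable depends on this choice. Coverage was also scaled by the pileups at 2114 strong iOL peaks called in all 3 libraries, a choice made after the data were seen. On this scale 514 wide iOL-alone peaks were within reach of the OPC library (27.2%) and 1040 within reach of the mOL library (55.0%). The 2114 peaks were chosen by a strength of 30 or more in iOL, which can lower the scaling ratio, and no correction was made. The calculation uses the genome background of the other library, since its local background at these positions is not known from a peak list.

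Peaks of other stages were often in the neighbourhood. The nearest OPC or mOL peak lay at a median of 4055 bases (3873 to 4348), and 1552 wide iOL-alone peaks (82.1%) had one within 10000 bases. The share was near that of the 34723 narrow iOL-alone peaks, at 80.3%. The nearest mOL peak lay at a median of 5097 bases and the nearest OPC peak at 12826, from lists of 166805 and 64732 peaks. Narrow iOL-alone peaks lay at about the same distances, with medians of 4341 bases to either list, 5393 to mOL and 13482 to OPC. The farthest wide iOL-alone peak, at chr18:10322888-10323882, was 56242 bases from an mOL peak and had 7 fragments. Those at chr3:55882165-55883032 and at chr13:67029862-67030578 were 50732 and 47181 bases from any other list, with 11 and 13 fragments. At the distance limit, the 5 peaks just inside lay 1002 to 1007 bases from another list with pileups of 7 to 15, and the 5 just outside lay 988 to 1000 bases away with pileups of 10 to 17.

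The density of wide iOL-alone peaks varied less between chromosomes than that of overlapping wide peaks, with no test made of this. Both classes are defined by the absence or presence of OPC and mOL peaks. The contrast therefore depends on the rule and is not shown to be a trait of the wide iOL-alone peaks. It was 0.689 per Mb over chromosomes 1 to 20 and ran from 0.731 times that mean on chromosome 4 to 1.18 times on chromosome 5. The density of overlapping wide peaks ran from 0.670 times their mean on chromosome 4 to 1.69 times on chromosome 10. On chromosome 10 the iOL-alone peaks stood at 1.14 times their mean, and on chromosome 12 at 0.960 times, where overlapping peaks stood at 1.46 times. The percent of wide iOL peaks that were alone was lowest on chromosome 12, with 36 of 136 (26.5%, 19.3 to 34.7%), and highest on chromosome 15, with 78 of 173 (45.1%, 37.5 to 52.8%). These are the extremes of 20 chromosomes, with intervals that take no account of that selection.

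**Figure D5:**
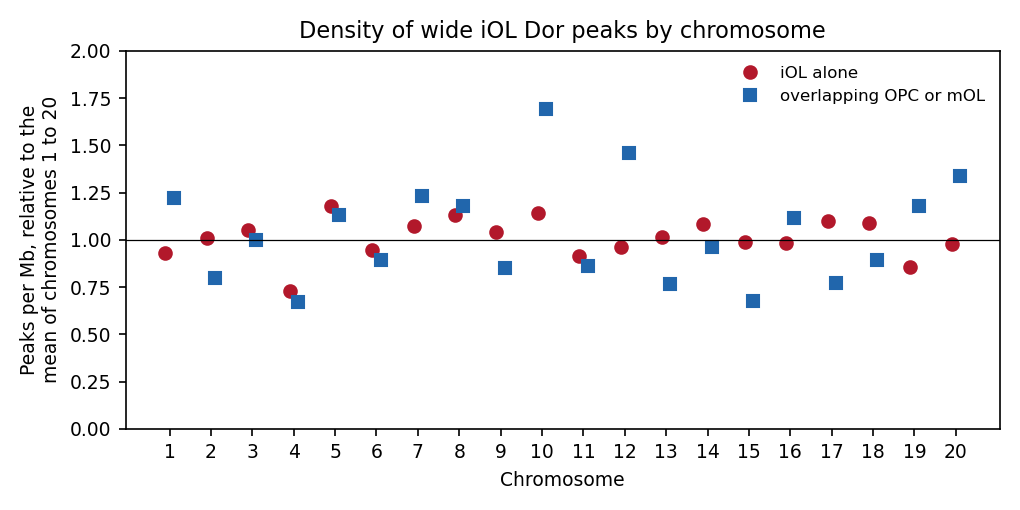
Peaks per Mb relative to the mean of chromosomes 1 to 20 (y axis) by chromosome (x axis), for wide iOL peaks alone and overlapping an OPC or mOL peak; the line marks the mean. The iOL-alone peaks stay between 0.731 and 1.18, while overlapping peaks range from 0.670 to 1.69.

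Clusters of wide iOL-alone peaks were few. Of 2756 windows of 1 Mb, 1444 held none, 869 held 1 and 4 held 5 or more. The window with the most lay at chr5:166000001-167000000, where 6 of its 7 wide iOL peaks were alone, among 21 OPC, 21 iOL and 67 mOL peaks of all kinds. Their pileups were 8, 22, 13, 8, 15 and 9 fragments along the chromosome, and the peak of 22, chr5:166514456-166514992, held all fragments of its 10 kb window. Windows with 5 lay at chr1:51000001-52000000, at chr2:243000001-244000000 and at chr3:182000001-183000000. Neighbouring wide iOL-alone peaks were a median of 879947 bases apart, and 7 pairs lay within 10000 bases of each other. The closest pair, 5418 bases apart chr14:107009868-107010525 and chr14:107015944-107016781, had pileups of 9 and 8.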

How the data were processed

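The starting point was 1 deposited peak list for each library. Build rn5, MACS2 2.2.7.1, Bowtie2 2.4.4 and deepTools 3.5.1 stand, with no roles, in the submitters' processing notes. For the use of a control, for duplicates and for the word pool in the peak names, the sources used here give no explanation. The authors' fold is a linear ratio of pileup to local background, and the deposited p-value and q-value columns hold −log10 values, with none under 5 for p. The deposited score is 10 times the −log10 p, without decimals. Column meanings were read from the narrowPeak layout.

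Pileups were recovered from the fold, which adds 1 to both terms, and the Poisson p; a whole number that gives the deposited −log10 p within 0.001 (above 100, in proportion to it) was found for 100% of non-mitochondrial rows. Backgrounds above the floor and below 3 fell on steps of the fragment length (299.67 bases in iOL) over 20000 in 100% of rows, within 0.05 steps. That length was fitted to the same steps with the 10 kb window assumed. The lowest iOL peak width was 299 bases. The 10 kb window is taken from how MACS2 works without a control, and the fit alone is no separate check of it. No iOL peak at the floor exceeded 18 fragments. A peak counted as callable if its chance of a p of at most 1e-05 was at least 0.99. Distances count bases between borders, overlap means at least 1 base, and coordinates count from 1. Chromosome lengths were taken as the end of the last peak. Shares carry exact Clopper-Pearson intervals and medians order-statistic intervals. With 1 library per stage no test was made. The rule on lists and the recovery were tested on simulated data.

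Named peaks were the 10 of highest pileup (ties by p, with those left out of the tie named as well), 5 of highest fold, 5 widest, 3 farthest from other lists, those beside the limits and the windows of 1 Mb with the most. The members, limits and bands were chosen with earlier results of these data known. Genes, features, motifs and the marker lists planned with them were not run, as no genome or annotation of rn5 was used here. Alternatives covered width, distance, thresholds, chromosomes and coverage. Python 3.11.15, numpy 2.4.6, pandas 2.3.3 and scipy 1.17.1 were used.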

Additional observations from a re-analysis of the deposited data

Results flagged for a closer look

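Chromosome X was outside the rule. By the same width and distance limits, 71 of its 140 wide iOL peaks were alone (50.7%, 42.1 to 59.3%), with a median pileup of 11 fragments. The rule left this chromosome out, so these peaks are given as values of data not used above.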

How the results depend on the processing

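The number and share of wide iOL-alone peaks follow the limits of the rule. At 400, 600 and 800 bases of width there were 14295, 1248 and 425 peaks, and at distances of 5000 and 10000 bases 786 and 339. The percent of wide iOL peaks that were alone was 59.3% at 400 bases and 34.5% at 800, 48.4% with overlap alone barred, 15.5% at 5000 bases, 6.66% at 10000, 34.1% with a −log10 q of at least 5 in iOL and 49.2% with OPC and mOL peaks kept only from the lowest iOL strength upward, an alternative chosen after seeing the data. The percent within the coverage of the OPC library was 13.5%, 34.5% and 19.5% at 400, 600 and 800 bases, 38.6% at 10000 bases of distance, 52.6% with the q limit in iOL, 52.2% with it in all lists, 47.0% with a fold of at least 5, 94.2% with the pileup in place of its lower limit and 27.2% with the ratio from shared strong peaks. For the mOL library it was 17.8%, 41.6%, 26.1%, 45.7%, 61.4%, 61.0%, 54.9%, 100% and 55.0% in the same order. Over 11 settings of width, distance, threshold and chromosomes the median fold ran from 5.67 to 8.14. With 501 bases as the limit, chosen after seeing the data, 1819 peaks remained and 36.6% were alone. No paired analysis was possible because there is 1 library per stage and so no replicate to pair. Peak calls rest on 6 to 38 fragments each, so single peaks are imprecise, and no replicate shows how many would recur.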
